A study of Saccharomyces cerevisiae with 93 samples.

Results

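Biotin is the cofactor of the carboxylases that make malonyl-CoA and oxaloacetate, and budding yeast either imports it or makes it from precursors. VHT1 encodes the plasma membrane symporter that takes up biotin together with protons, and BIO5 a transporter for the precursor 7-keto-8-aminopelargonic acid. BIO3, BIO4 and BIO2 encode the enzymes that turn that precursor into biotin, the last of them an iron-sulphur protein of mitochondria. VHT1 is known to be activated both in low biotin, through Vhr1, and in low iron, through the iron-responsive activator Aft1, under which the synthesis genes are lowered.

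These 5 genes were followed, out of 6377 probes on the arrays, each by the 1 probe whose open reading frame carries its name: VHT1 (YGR065C), BIO5 (YNR056C), BIO3 (YNR058W), BIO4 (YNR057C) and BIO2 (YGR286C). BIO5, BIO4 and BIO3 are neighbours on chromosome XIV in the reference annotation, in that order, and VHT1 and BIO2 lie on chromosome VII. The genes were taken by name, but VHT1 was also chosen by its measured log2 ratios, since the compounds differed in them. Its values with compounds are therefore given as a description, with no test, whereas BIO2 to BIO5 were tested throughout.

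Yeast cultures, grown from single colonies, carried an empty vector or alpha-synuclein, the protein that aggregates in Parkinson's disease, under a promoter switched on by galactose. Cells with 2 copies of the gene, cells with 1 copy and cells with an empty vector were compared in pairs at 0, 2, 4 and 6 h of induction in galactose. At 4 h, 2-copy cells and vector cells were also compared with and without each of 6 related compounds, and 2-copy with vector cells when both received the compound. The full genotype stands on the label of 1 sample, a 2-copy culture with compound 2: W303, mating type a, with the alleles ura3-1, his3-11,15, trp1-1, ade2-1 and can1-100, a leu2 mutation, kanMX at PDR1 and PDR3, which control drug pumps, and alpha-synuclein fused to green fluorescent protein on the integrating plasmids pRS304 and pRS306. The genotypes of the 1-copy and vector strains are not spelled out in the labels, nor are the doses of the compounds. Compounds 1, 2 and 6 are dihydrobenzoquinolinones: 1 carries an iodophenyl group, 2 a bromophenyl group in its place, and 6, labelled as the R form, an ethylphenyl group and a bromine on the ring system. Compounds 3, 4 and 5 are dimethyl dihydroquinolinones: 3 and 4 carry a phenyl group with a bromine and a fluorine at different positions, and 5 carries an ethyl group as its label names it.

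Each array set 1 RNA in Cy5 against another in Cy3 and gave a log2 ratio, so that -1 is a 2-fold lower and 1 a 2-fold higher level in the sample named first. Of 93 arrays, 10 whose probe rows are suspect were left out of means and tests: for 2-copy over vector, arrays 2 and 3 with each of compounds 3, 4 and 6, and within 2-copy cells arrays 2 and 3 of compound 3 and array 3 of compounds 4 and 6. Over all probes these 10 correlated with the kept arrays of their own group at 0.00762 to 0.214. Their values are given beside the rest. The 83 kept arrays fell into 30 groups of 1 to 6. On 2 groups the kept arrays ran against each other: the 2 arrays of compound 6 in 2-copy cells correlated at -0.41 over all probes, and arrays 2 and 3 of compound 5 in vector cells at -0.32, so that the direction of 1 array in each is not settled. Turning the sign of array 2 in both groups changed no call in BIO2 to BIO5. It brought the VHT1 mean to 0.11 (0.017 as read) for compound 6 in 2-copy cells and to -0.053 (0.042 as read) for compound 5 in vector cells, and that of BIO3 to -0.22 (-0.17 as read) and -0.21 (0.18 as read). The marker gene URA3 averaged -0.91 in 2-copy over vector cells and -2.26 in 1-copy over vector cells at 4 h, TRP1 1.26 and GAL1 -0.44 in 2-copy over vector cells, so the strain differences below include the strains' markers as well as their alpha-synuclein.

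VHT1 was called lower in 2-copy than in vector cells from 2 h of induction on. Its log2 ratios in 2-copy over vector cells on the 3 arrays of 0 h were -0.019, -0.33 and -0.32, a mean of -0.22 that was not called (limma's moderated test, adjusted p = 0.358). At 2 h they were -0.84, -0.87 and -0.61, all below the 3 arrays of 0 h. The 6 arrays of 4 h lay between -1.08 and -0.86 with a median of -0.93, and those of 6 h were -0.48, -1.24 and -0.90. Means were -0.77 ± 0.14 (SD, n = 3, adjusted p = 0.000238) at 2 h, -0.95 ± 0.086 (n = 6, adjusted p = 2.89e-11, 1.94-fold lower) at 4 h and -0.87 ± 0.38 (n = 3, adjusted p = 4.2e-06) at 6 h. A ratio from a whole culture cannot tell fewer cells that carry a transcript from less of it per cell.

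The 6 arrays of 4 h carry numbers 1 to 6 in the labels, and for VHT1 numbers 1 to 3 (-1.08 to -0.95) lay below numbers 4 to 6 (-0.92 to -0.86). BIO2 differed between them as well, with -0.57 to -0.53 on numbers 1 to 3 and -0.50 to -0.21 on numbers 4 to 6, whereas the other members overlapped. All 5 members had the same direction in both sets.

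Set against their own values before induction, the 2-copy over vector ratios of VHT1 differed by -0.55 (not called, SE 0.22, adjusted p = 0.134) at 2 h, by -0.73 (SE 0.19, adjusted p = 0.00113) at 4 h and by -0.65 (SE 0.22, adjusted p = 0.02) at 6 h. The arrays of 2, 4 and 6 h did not overlap with those of 0 h. The 6 h change was no longer called when number 2 (-0.52, adjusted p = 0.188) or number 3 (-0.68, adjusted p = 0.102) was left out of all groups. Scaling each array by its spread ended the calls at 4 h (-0.33, adjusted p = 0.206) and 6 h (-0.28, adjusted p = 0.5).

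In 1-copy over vector cells, VHT1 was below 0 on all 12 arrays. It measured -0.086, -0.41 and -0.19 at 0 h, -0.15, -0.31 and -0.30 at 2 h, -0.39, -0.58 and -0.45 at 4 h, and -0.37, -0.59 and -0.36 at 6 h. The means at 4 h (-0.47 ± 0.10, SD, n = 3, adjusted p = 0.161) and at 6 h (-0.44 ± 0.13, SD, n = 3, adjusted p = 0.213) were not called. Under some settings they were: with array scaling (-0.73, adjusted p = 0.000814, and -0.72, adjusted p = 0.000631) and with array weights (adjusted p = 2.4e-06 and 0.000444). Own arrays alone gave a call at 4 h (adjusted p = 0.0407). The 4 h arrays did not overlap with those of 2-copy over vector at 4 h, whereas at 6 h the arrays of the 2 comparisons overlapped. The direct comparison of 1-copy over 2-copy cells gave -0.34, 0.35, 0.21 and -0.18 at 0, 2, 4 and 6 h, with no call. At 6 h that direct value differed from the 0.43 obtained by subtracting 2-copy over vector from 1-copy over vector, and it was the lower one at every time (by 0.33, 0.16, 0.27 and 0.61 at 0, 2, 4 and 6 h). These arrays have no dye swap. A model with a dye term gave VHT1 a dye coefficient of -0.38 (SE 0.13, adjusted p = 0.235) and a 4 h value of -0.71 (adjusted p = 1.66e-05) in 2-copy over vector cells.

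BIO5, the precursor transporter, differed little between the strains. In 2-copy over vector cells at 4 h its 6 arrays lay between -0.36 and -0.24 with a median of -0.28. The mean of -0.29 ± 0.047 (SD, n = 6, adjusted p = 0.0045) was called, but it was -0.061 (adjusted p = 0.683) with the dye term and -0.17 (adjusted p = 0.118) with array scaling. At 2 h the arrays gave -0.38, -0.24 and -0.36, overlapping with those of 4 h, and the mean of -0.33 was not called (adjusted p = 0.079). At 6 h the arrays disagreed, at 0.41, -0.53 and -0.28, and at 0 h they were -0.37, 0.18 and -0.083. In 1-copy over vector and 1-copy over 2-copy cells BIO5 was called at no time, with means between -0.24 and 0.13.

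BIO3, the aminotransferase that makes diaminopelargonic acid, moved the opposite way from VHT1 and was called in 2-copy over vector cells at 4 h alone. In 2-copy over vector cells its arrays read -0.56, -0.44 and -0.21 at 0 h, 0.14, -0.10 and 0.24 at 2 h, and 0.15, -0.052 and 0.31 at 6 h. None of those 3 means was called. At 4 h the arrays were 0.85, 0.62, 0.40, 0.79, 1.15 and 1.07, all above every array of the other times. The 4 h mean of 0.81 ± 0.28 (SD, n = 6, 1.76-fold higher) had an adjusted p of 1.42e-07, and the change from 0 h was 1.22 (SE 0.22, adjusted p = 6.88e-06).

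BIO4, the dethiobiotin synthetase encoded next to BIO3, followed the same course. Its 4 h arrays in 2-copy over vector cells read 0.89, 0.63, 0.58, 0.52, 0.75 and 0.79, whereas the 9 arrays of 0, 2 and 6 h lay between -0.18 and 0.18. The 4 h mean of 0.69 ± 0.14 (SD, n = 6, 1.62-fold higher) was called (adjusted p = 2.06e-06), as was the change from 0 h of 0.80 (SE 0.21, adjusted p = 0.00152). At 6 h the mean was back at 0.0017 ± 0.16 (SD, n = 3).

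No such rise was called in the 1-copy strain. In 1-copy over vector cells at 4 h BIO3 measured -0.1, 0.14 and -0.32 and BIO4 0.095, 0.084 and -0.024, with neither called. The direct arrays of 1-copy over 2-copy cells at 4 h gave -0.94, -0.85 and -0.79 for BIO3 (mean -0.86 ± 0.072, SD, n = 3, adjusted p = 6.53e-05; -0.51 with array scaling, adjusted p = 0.0938). For BIO4 they gave -0.56, -0.48 and -0.42 (mean -0.49 ± 0.071, SD, n = 3, adjusted p = 0.0163), a call that was lost when number 2 (adjusted p = 0.0961) or number 3 (adjusted p = 0.0871) was left out of all groups, and with array scaling (-0.29, adjusted p = 0.121). At 4 h the direct BIO3 value was within 0.048 of that obtained through the vector strain, and the direct BIO4 value was higher by 0.15. At other times BIO3 differed more between the routes. It was 0.28 directly against -0.22 through the vector strain at 2 h, and 0.17 against -0.20 at 6 h.

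BIO2, the biotin synthase, fell late. In 2-copy over vector cells it read -0.73, -0.53 and 0.11 at 0 h and -0.13, 0.079 and -0.34 at 2 h, with neither mean called. At 4 h the arrays lay between -0.57 and -0.21 with a median of -0.52, and at 6 h they were -1.65, -1.61 and -1.57. Every array of 6 h was below every array of the other times, and 0.58% of all probes had a lower mean at that time. The means were -0.44 ± 0.15 (SD, n = 6, adjusted p = 0.000267) at 4 h and -1.61 ± 0.043 (SD, n = 3, adjusted p = 2.7e-13, 3.05-fold lower) at 6 h. The change from 0 h was -1.23 (SE 0.21, adjusted p = 1.02e-05; -0.56 with array scaling, adjusted p = 0.057) at 6 h and -0.06 (SE 0.18, adjusted p = 0.828) at 4 h.

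The same late difference in BIO2 appeared on the arrays that set 1-copy against 2-copy cells. They read 1.46, 1.48 and 1.02 at 6 h, a mean of 1.32 ± 0.26 (SD, n = 3, adjusted p = 1.55e-10) that was within 0.0033 of the value through the vector strain. At 4 h BIO2 measured 0.70, 0.78 and 0.41 (mean 0.63 ± 0.19, SD, n = 3, adjusted p = 0.00037). At 0 h, before induction, it measured 0.77, 0.34 and 0.90 (mean 0.67 ± 0.29, SD, n = 3, adjusted p = 0.00476), whereas the value through the vector strain was 0.15. The 0 h call was lost when number 1 (adjusted p = 0.0659) or number 3 (adjusted p = 0.292) was left out of all groups, with the dye term (0.39) and with its own arrays alone (adjusted p = 0.407). In 1-copy over vector cells BIO2 stayed between means of -0.29 and 0.034, with no call.

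**Figure D1:**
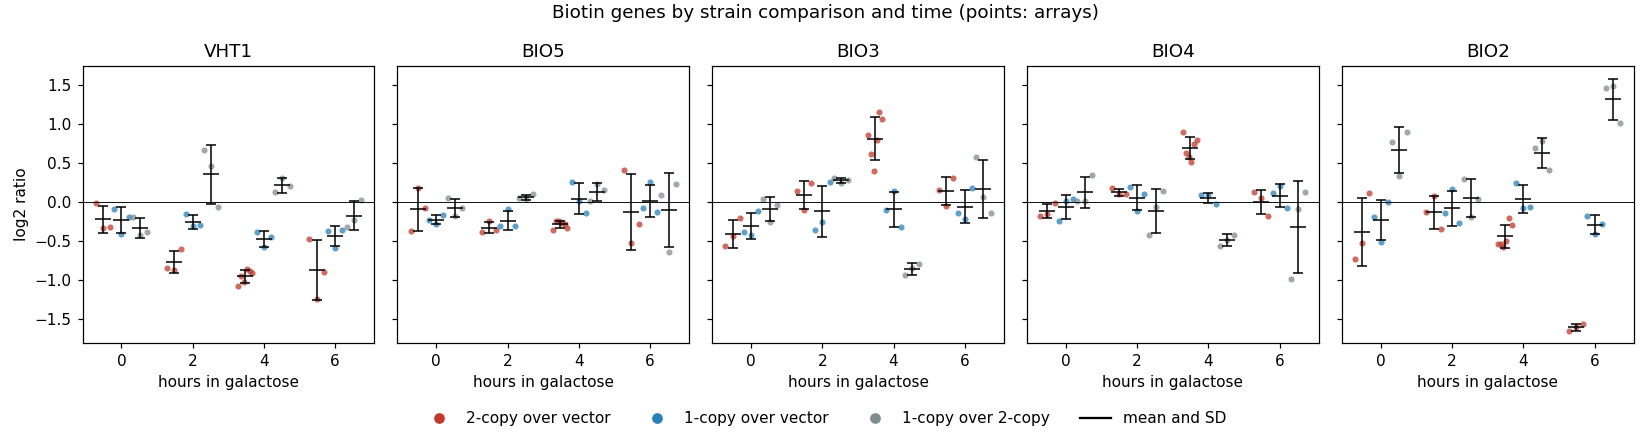
Log2 ratios of the 5 biotin genes (1 panel each) against hours in galactose, for 2-copy over vector (red), 1-copy over vector (blue) and 1-copy over 2-copy cells (grey). Points are arrays and black bars are means with SD; VHT1 in red stays below 0 from 2 h on, BIO3 and BIO4 in red are above 0 at 4 h, and BIO2 in red reaches -1.61 at 6 h.

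Over the 12 time-course groups 13 of 60 member tests were called, where 20.5% of all tests were. Counted over the 5 members, 0 were called in 2-copy over vector at 0 h (14.8% of all probes were called, and 2 members had an unadjusted p under 0.05), 1 at 2 h (12.2% of probes), 5 at 4 h (61.7% of probes) and 2 at 6 h (42.8% of probes). With 61.7% of probes called at 4 h, 5 of 5 says little about these genes beyond their own values. In 1-copy over vector cells 0 members were called at 0, 2, 4 or 6 h, where 2.98%, 5.76%, 0.643% and 0.8% of probes were, and in those 20 tests 2 had an unadjusted p under 0.05, both VHT1. In 1-copy over 2-copy cells 1, 0, 3 and 1 members were called at 0, 2, 4 and 6 h, against 4.5%, 11.9%, 48% and 39.8% of probes. For the change from 0 h in 2-copy over vector cells, 0, 3 and 2 members were called at 2, 4 and 6 h, against 5.63%, 40.4% and 25.6% of probes. The same changes in 1-copy over vector cells gave 0 calls among members, with 0 at an unadjusted p under 0.05, and 0.0157%, 0% and 0.0784% of probes.

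With the compounds, the uptake gene VHT1 gave its highest ratios with compounds 1 and 2 in 2-copy cells. In 2-copy cells the ratios with over without compound 1 were 1.68, 0.87 and 1.53, and those with compound 2 were 1.54, 0.99 and 1.54. Both groups averaged 1.36 (SD 0.43 and 0.32, n = 3 each), which is 2.57-fold and 2.56-fold, and the arrays of compound 2 lay within the range of those of compound 1. On the arrays of compound 1, 99.6% of all probes had a lower mean than VHT1, and on those of compound 2, 99.4% did. In vector cells VHT1 read 0.53, -0.21 and 0.094 with compound 1 and -0.20, 0.24 and 0.31 with compound 2. Those arrays lay on both sides of 0, and none reached the lowest array of the 2-copy cells. With a dye term the vector means were 0.59 for compound 1 and 0.56 for compound 2, against 1.66 and 1.67 in 2-copy cells.

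The dimethyl compounds gave VHT1 lower values in 2-copy cells. With compound 3 the 1 kept array read 0.54 (0.22 and 0.34 on the arrays left out), and with compound 4 the 2 kept arrays read 0.56 and 0.082 (0.45 on the array left out). In vector cells compound 3 gave -0.45, -0.14 and -0.38 and compound 4 gave -0.20, -0.069 and -0.27. The kept arrays of compounds 3 and 4 were thus above 0 in 2-copy cells, on 1 and 2 arrays, and below 0 in vector cells. The arrays left out were above 0 too, but with their probe rows suspect they cannot be counted for VHT1. With a dye term, the means in vector cells were 0.16 for compound 3 and 0.25 for compound 4.

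Compound 5 gave -0.94, 0.20 and 0.52 for VHT1 in 2-copy cells and -0.11, 0.14 and 0.094 in vector cells. Array 1 of the 2-copy cells stood far below the other two, and without it the mean was 0.36, against -0.076 with it. Compound 6 gave 0.13 and -0.094 in 2-copy cells (0.0063 on the array left out) and -0.02, -0.012 and -0.20 in vector cells. Either way the sign of the compound 6 arrays is read, VHT1 stayed within 0.13 of 0 in 2-copy cells.

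The mean response of VHT1 in 2-copy cells was thus 1.36 for compounds 1 and 2, 0.54 for compound 3, 0.32 for compound 4, 0.017 for compound 6 and -0.076 for compound 5. The values below those of compounds 1 and 2 have no settled order: compound 5 was at 0.36 without its array 1, compounds 3 and 4 were at 0.37 and 0.36 with all arrays, and with the dye term compounds 3 to 6 were at 0.59, 0.62, 0.43 and 0.24. Compounds 1 and 2 overlapped with each other and with no other compound, whereas the kept array of compound 3 fell within the range of compound 4, and compound 6 overlapped with compounds 4 and 5. The response in 2-copy cells minus that in vector cells was 1.22, 1.24, 0.87, 0.50, -0.12 and 0.096 for compounds 1 to 6, and the arrays of the strains did not overlap for compounds 1 to 4. For compounds 3 and 4 the same differences were 0.43 and 0.37 with the dye term and -0.033 and 0.084 through the arrays of the other comparisons. Iodine in compound 1 and bromine in compound 2 went with VHT1 means that differed by 0.0022 in 2-copy cells, where the SD within a compound was 0.32 or more. Compounds 3 and 4, with bromine and fluorine at different positions, differed by 0.22 with 1 and 2 kept arrays, and their ranges overlapped.

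BIO3 fell in 2-copy cells with compounds 1, 2 and 5, the direction opposite to that of VHT1 with compounds 1 and 2. In 2-copy cells the arrays read -1.86, -0.68 and -0.61 with compound 1, -0.93, -0.53 and -0.40 with compound 2, and -0.98, -1.03 and -0.36 with compound 5. All 9 were below 0. The means were -1.05 ± 0.70 (adjusted p = 4.53e-06), -0.62 ± 0.27 (adjusted p = 0.00455) and -0.79 ± 0.38 (adjusted p = 0.00958; SD, n = 3 each). Without number 1 of every group, the mean was -0.64 for compound 1 (adjusted p = 0.0357), and the calls for compound 2 (-0.47, adjusted p = 0.12) and compound 5 (-0.70, adjusted p = 0.274) were lost.

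For the other compounds BIO3 was not called in 2-copy cells. Compound 3 gave -0.64 on the kept array but 0.066 and 0.30 on the arrays left out, and compound 4 gave -0.44 and -0.45 against 0.056 on the array left out. The arrays left out were thus the ones above 0. Compound 6 gave -0.39 and 0.049, with 0.18 on the array left out.

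In vector cells BIO3 was called with no compound. With compound 1 the vector arrays read 0.069, -1.05 and -0.19, and with compound 6 -0.058, -1.10 and 0.36, so that 1 array decided the mean in each group. With compound 2 they read -0.003, 0.20 and 0.21, all above the 2-copy arrays of the same compound. The response in 2-copy minus vector cells was -0.76 (SE 0.25, adjusted p = 0.0319) for compound 2, a call that was lost when any 1 number was left out of all groups (adjusted p = 0.204, 0.0713 and 0.0987 without numbers 1, 2 and 3). It was -0.66 for compound 1 (adjusted p = 0.0622) and -0.97 for compound 5 (adjusted p = 0.0904).

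BIO4, which had risen together with BIO3 at 4 h in 2-copy over vector cells, showed no call with any compound. In 2-copy cells it read -0.58, 0.0078 and -0.14 with compound 1, -0.83, 0.25 and 0.021 with compound 2, and -1.59, 0.19 and -0.0035 with compound 5. Array 1 was the lowest in each of these groups. The 2-copy means were -0.24 ± 0.31 for compound 1, -0.19 ± 0.57 for compound 2 and -0.47 ± 0.98 for compound 5 (SD, n = 3 each), and 0.095 for compound 5 without array 1. In vector cells the arrays of all 6 compounds lay between -0.17 and 0.51.

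BIO2 was called higher in 2-copy cells with compounds 1 and 2, by small amounts and under few settings. The 2-copy arrays read 0.80, 0.076 and 0.22 with compound 1 (mean 0.36 ± 0.38, SD, n = 3, adjusted p = 0.0485) and 0.65, 0.24 and 0.35 with compound 2 (mean 0.41 ± 0.21, SD, n = 3, adjusted p = 0.0249). Without number 1 of every group the means were 0.15 (adjusted p = 0.632) and 0.29 (adjusted p = 0.272), and without number 3 the calls were lost as well (adjusted p = 0.0674 and 0.0661). The dye term, array scaling, array weights and own arrays alone also ended both calls, which were kept under 1 of 8 alternatives for compound 1 and 2 of 8 for compound 2. In vector cells BIO2 averaged 0.32 with compound 1 and 0.25 with compound 2, not called, and the difference between strains was 0.042 (95% interval -0.38 to 0.47) for compound 1 and 0.17 (-0.26 to 0.59) for compound 2.

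BIO5 was called with no compound in either strain. Its means lay between -0.25 and 0.06 in 2-copy cells and between -0.18 and 0.26 in vector cells. The vector mean of 0.26 for compound 6 came from 1 array at 0.82, the others being at -0.0012 and -0.021.

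**Figure D2:**
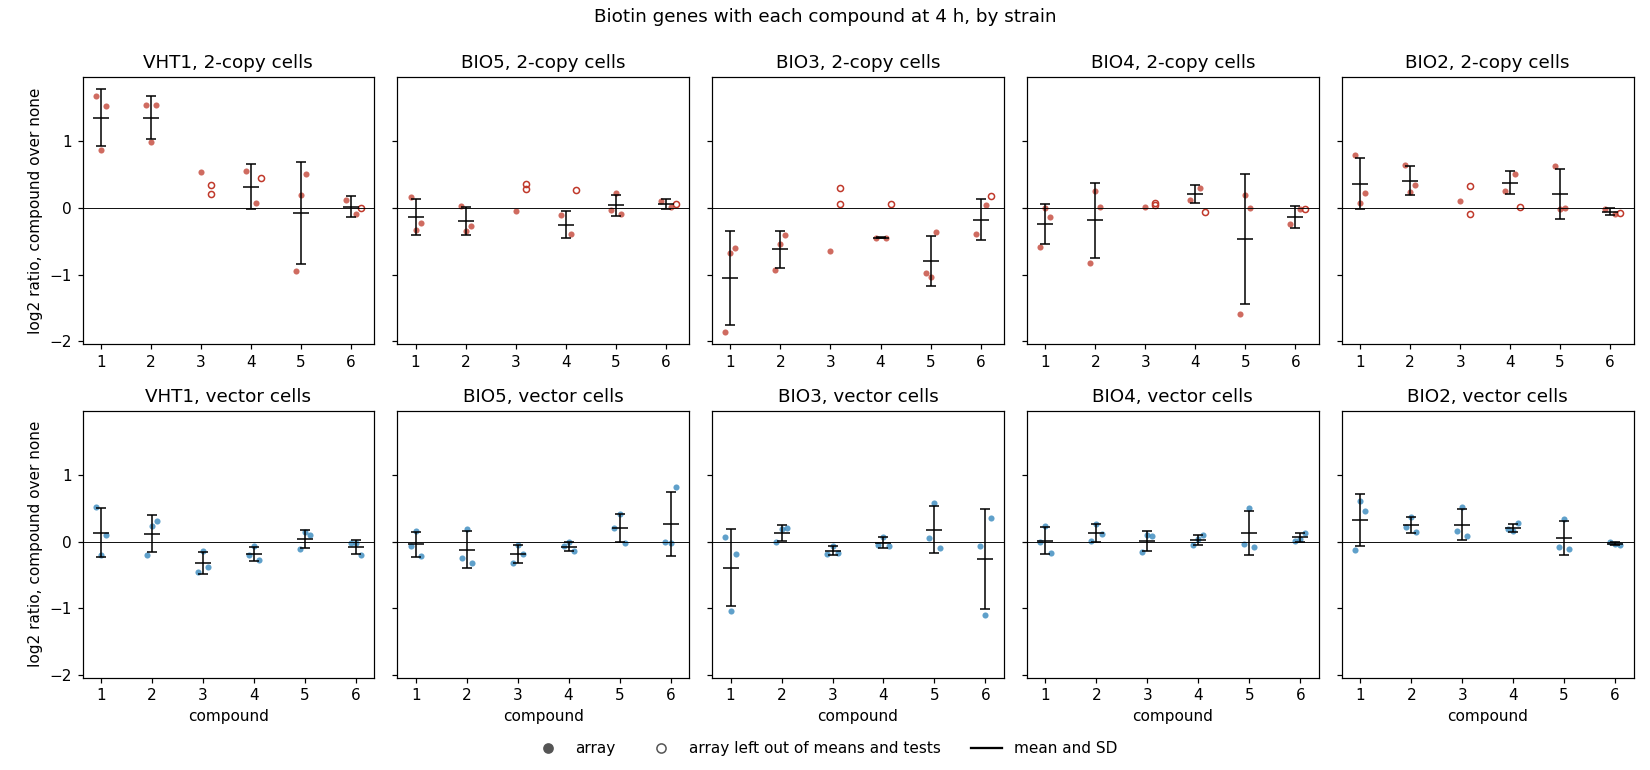
Log2 ratios with over without each of compounds 1 to 6 at 4 h for the 5 biotin genes, in 2-copy cells (upper row, red) and vector cells (lower row, blue). Filled points are arrays, open points are arrays left out of means and tests, and bars are means with SD; VHT1 averages 1.36 with compounds 1 and 2 in 2-copy cells and 0.14 and 0.12 in vector cells, where a dye term gives 0.59 and 0.56.

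Over BIO2 to BIO5, 2 of 4 genes were called with compound 1 in 2-copy cells, 2 with compound 2, 0 with compounds 3 and 4, 1 with compound 5 and 0 with compound 6. Among all probes 37%, 37%, 6.77%, 13.1%, 2.12% and 0.0157% were called with compounds 1 to 6, and 9 of the 24 member tests had an unadjusted p under 0.05. In vector cells 0 of 24 were called (5.27%, 2.15%, 0.345%, 0.392%, 0.768% and 0.0157% of probes), with 3 at an unadjusted p under 0.05. The difference between the strains was called in 1 of 24 tests, BIO3 with compound 2, where 15.8% of probes were called, against 17.4% with compound 1, 1.51% with compound 3, 2.32% with compound 4, 0.0784% with compound 5 and 0% with compound 6.

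Pairs of compounds were compared at the same time point, with doses not given in the sources used here. Over 15 pairs and BIO2 to BIO5, 0 of 60 differences were called in 2-copy cells and 0 of 60 in vector cells, with p adjusted over all probes and pairs together. Of all probes and pairs 1.63% and 0.0523% were called, and 4 and 5 of the members' differences had an unadjusted p under 0.05. The difference with the smallest p was that of BIO3 between compounds 1 and 6 in 2-copy cells, at -0.88 (95% interval -1.44 to -0.31, adjusted p = 0.114). It was called with all 93 arrays (-0.99, adjusted p = 0.0355), with a dye term (-0.80, adjusted p = 0.0454) and with a replicate block (-1.10, adjusted p = 0.0233). Compound 1 minus compound 2, iodine against bromine, gave -0.43 (-0.93 to 0.081) for BIO3, -0.048 (-0.47 to 0.38) for BIO2, -0.051 (-0.54 to 0.44) for BIO4 and 0.063 (-0.30 to 0.42) for BIO5 in 2-copy cells. Compound 3 minus compound 4 gave -0.19 (-0.96 to 0.57) for BIO3 and -0.28 (-0.92 to 0.35) for BIO2. These intervals are wide against the responses themselves and leave room for differences in either direction.

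When both strains received a compound, the strain difference in VHT1 was closest to 0 with compounds 1 and 2 on the arrays as deposited. In 2-copy over vector cells with compound 1 the arrays read 0.27, -0.36 and -0.17, and with compound 2 they read 0.21, -0.067 and -0.27, against -1.08 to -0.86 without compound. No array with compound 1 or 2 overlapped with those without. The means were -0.087 ± 0.32 and -0.041 ± 0.24 (SD, n = 3 each), against -0.95 ± 0.086 (SD, n = 6). With a dye term they were 0.37 and 0.40 for compounds 1 and 2, -0.28 and -0.34 for compounds 3 and 4, -0.56 and -0.87 for compounds 5 and 6, and -0.71 without compound, so that compounds 3 and 4 were then as close to 0 as 1 and 2.

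With compound 5, VHT1 in 2-copy over vector cells read -0.58, -0.94 and -0.89, a mean of -0.80 ± 0.20 (SD, n = 3) that overlapped with the arrays without compound. Compounds 3, 4 and 6 kept 1 array each, at -0.99, -0.87 and -1.55. The arrays left out read -0.46 and -0.60 with compound 3, -0.54 and -0.57 with compound 4, and -0.95 and -1.25 with compound 6. Those of compounds 3 and 4 were closer to 0 than any array without compound, and with them the means were -0.68 and -0.66.

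The same strain difference can be added up from the arrays without compound and the responses in each strain. For VHT1 this gave 0.27, 0.29, -0.088, -0.45, -1.07 and -0.86 for compounds 1 to 6. The direct values were lower than these for 5 of the 6 compounds, by 0.36, 0.33, 0.90, 0.42 and 0.70 for compounds 1, 2, 3, 4 and 6, and higher by 0.27 for compound 5. With compounds 1 and 2 both kinds of value were above every array without compound, whereas with compounds 3 and 4 only the added-up ones were. Over all probes the direct and added-up values correlated at 0.56 to 0.82, as a description of 6377 probes that share arrays.

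BIO3 was called higher in 2-copy over vector cells with compounds 1, 3, 4, 5 and 6, but none of these calls was kept under both the dye term and array scaling. The arrays read 0.45, 0.82 and 0.56 with compound 1, 0.25, 0.75 and 0.56 with compound 2, and 0.43, 0.95 and 0.66 with compound 5, against 0.40 to 1.15 without compound. All but 1 of these arrays lay within the range without compound. The means were 0.61 ± 0.19 (adjusted p = 0.0188), 0.52 ± 0.25 (adjusted p = 0.0627) and 0.68 ± 0.26 (adjusted p = 0.00223; SD, n = 3 each). Added up from the other arrays, BIO3 came to 0.16, 0.059 and -0.16 for compounds 1, 2 and 5, below the direct values by 0.45, 0.46 and 0.84. The direct values fell short of a call with a dye term, at 0.29 (adjusted p = 0.514) for compound 1 and 0.23 (adjusted p = 0.433) for compound 5. Both calls were also lost without number 2 (adjusted p = 0.24 and 0.061), and that of compound 1 without number 3 (adjusted p = 0.0879).

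With compounds 3, 4 and 6 the 1 kept array gave BIO3 1.05, 1.15 and 1.13 (adjusted p = 0.0222, 0.0107 and 0.0059, with the spread taken from the other groups). The arrays left out lay between 0.14 and 0.37, below every array without compound. With all arrays the means were 0.51 (adjusted p = 0.0724), 0.56 (adjusted p = 0.044) and 0.50 (adjusted p = 0.0391). The dye term ended the calls of compounds 3 and 4, and array scaling those of compounds 3, 4, 5 and 6.

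BIO4 in 2-copy over vector cells read -0.076, 0.35 and 0.38 with compound 1, 0.086, 0.76 and 0.59 with compound 2 and 0.098, 0.42 and 0.50 with compound 5, against 0.52 to 0.89 without compound. No array with compound 1 or 5 reached that range, and none of these 3 means was called. The kept arrays with compounds 3 and 4 gave 1.04 (adjusted p = 0.0174) and 0.97 (adjusted p = 0.0278), and those left out 0.22 and 0.14, and 0.16 and -0.014. With all arrays the means were 0.47 (adjusted p = 0.0685) and 0.37 (adjusted p = 0.168), so the calls rest on 1 array each. Compound 6 gave 0.49 on the kept array, which was not called.

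BIO2 in 2-copy over vector cells was called lower with compound 2, where the arrays read -0.31, -1.02 and -0.10 (mean -0.48 ± 0.48, SD, n = 3, adjusted p = 0.0362). Array 2 decided it, and without number 2 the mean was -0.21 (adjusted p = 0.743), while without number 1 it was -0.56 (adjusted p = 0.0638). With compound 3 the kept array read -0.80 (adjusted p = 0.0399), with 0.39 and -0.28 on the arrays left out and a mean of -0.23 over all (adjusted p = 0.356). The other means of BIO2 lay between -0.60 and -0.23, on the side of the -0.44 without compound, and were not called. BIO5 was called with no compound, with means between -0.17 and 0.17, against -0.29 without.

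**Figure D3:**
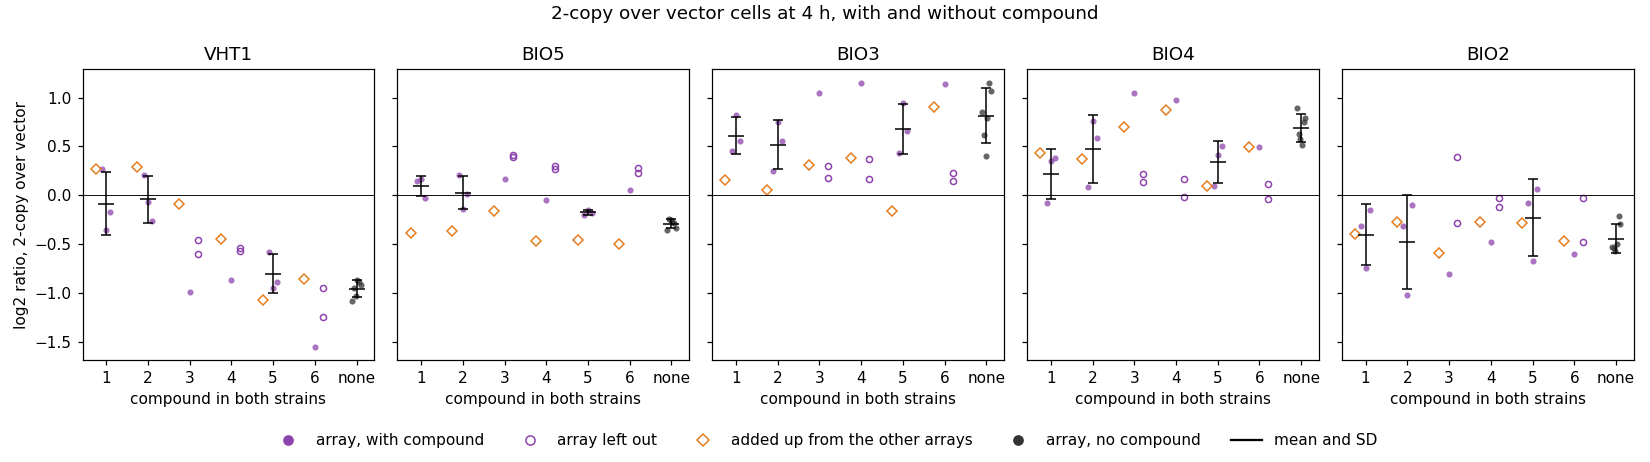
Log2 ratios of 2-copy over vector cells at 4 h with compounds 1 to 6 in both strains (purple) and with none (black), for the 5 biotin genes. Open circles are arrays left out, orange diamonds the values added up from the other arrays, and bars means with SD; VHT1 lies near 0 with compounds 1 and 2 and at -0.95 on average with none.

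Over BIO2 to BIO5, 1, 1, 3, 2, 1 and 1 of 4 genes were called in 2-copy over vector cells with compounds 1 to 6, where 9.94%, 7.75%, 8.8%, 8.97%, 32.5% and 19.6% of probes were called.

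The genes that use biotin were called in both directions. Of 7 measured, covering the carboxylases, the biotin protein ligase BPL1 and the biotinylated tRNA-binding cofactor ARC1, 2 rose and 2 fell in 2-copy over vector cells at 4 h, with a median of -0.0064 against -0.00012 over all probes, of which 61.7% were called. PYC1, a pyruvate carboxylase, rose by 0.80 ± 0.24 (SD, n = 6, adjusted p = 1.74e-08), whereas ARC1 averaged -0.65 ± 0.16 (adjusted p = 7.15e-12) and ACC1, the acetyl-CoA carboxylase, -0.34 ± 0.28 (adjusted p = 0.017). At 6 h 3 rose and 1 fell, where 42.8% of probes were called. With compound 1 in 2-copy cells 2 of 7 rose and with compound 2 3 rose and 1 fell (37% of probes called with each). In vector cells 1 rose and 1 fell with compound 1 (5.27% of probes called) and 1 rose with compound 2 (2.15% of probes called).

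Of 5 regulators of biotin and iron genes (VHR1, VHR2, AFT1, AFT2 and CTH2), 2 rose in 2-copy over vector cells at 4 h and 3 at 6 h, where 61.7% and 42.8% of all probes were called. CTH2, whose protein promotes the decay of transcripts in low iron, averaged 2.69 ± 0.48 (SD, n = 6, adjusted p = 3.81e-16) at 4 h and AFT1 0.41 ± 0.21 (SD, n = 6, adjusted p = 0.000824). With each of compounds 1 and 2 in 2-copy cells 1 of the 5 was called higher and 1 lower, where 37% of all probes were called. The higher one, AFT1, averaged 0.55 (adjusted p = 0.00347) and 0.81 (adjusted p = 2.46e-05), against 0.31 and 0.47 in vector cells, not called. The values of the other regulators with compounds, CTH2 and the lower one included, are not described here. In vector cells 0 of the 5 were called with either compound, where 5.27% and 2.15% of probes were.

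The 12 iron uptake genes, most of them known targets of Aft1 as VHT1 is, are set beside VHT1 here. The list was chosen with earlier results of these data known, so its counts are a description and no independent support. In 2-copy cells 12 of 12 were called higher with compound 1 (median 1.41) and with compound 2 (median 1.32), 5 with compound 3 (1.13), 3 with compound 4 (0.63), and 0 with compounds 5 (0.28) and 6 (0.12), where 17.2%, 16.6%, 3.04%, 4.89%, 0.376% and 0.0157% of all probes were called higher with compounds 1 to 6. In vector cells 1 was called with compound 1, 1 with compound 2 and 0 with the others, with medians between 0.034 and 0.29. Of all probes 5.27%, 2.15%, 0.345%, 0.392%, 0.768% and 0.0157% were called there in either direction with compounds 1 to 6. VHT1 itself was highest with compounds 1 and 2 as well, the values for which it was chosen. FIT2, a cell wall protein that retains siderophore iron, averaged 4.27 with compound 1 and 4.37 with compound 2 in 2-copy cells, and 1.05 and 1.37 in vector cells. FIT3, of the same family, averaged 3.51 with either compound in 2-copy cells and was the 1 gene called in vector cells (1.75 with compound 2).

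Without compound at 4 h, VHT1 and the median of the iron uptake genes had opposite signs, but most of these genes were not called. In 2-copy over vector cells at 4 h 2 of the 12 were called higher, 1 lower and 9 not at all (61.7% of all probes called). Their median was 0.42, while VHT1 was at -0.95. At 0, 2 and 6 h the medians were -0.014, 0.07 and 0.059. At those times 0, 0 and 4 of the genes were called, all higher, against 14.8%, 12.2% and 42.8% of probes. FRE1 (1.27 ± 0.22) and FRE3 (-0.80 ± 0.18, SD, n = 6 each), both ferric reductases, were called in opposite directions (adjusted p = 1.57e-08 and 5.29e-06).

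The 13 genes of iron-sulphur cluster assembly, on which BIO2 protein depends, were called in both directions. Between 2-copy and vector cells 6 rose and 1 fell at 0 h, 3 rose and 6 fell at 4 h, and 4 rose and 3 fell at 6 h, where 14.8%, 61.7% and 42.8% of all probes were called. IBA57, a maturation factor for proteins of the biotin synthase kind, averaged -1.07 ± 0.19 (SD, n = 6, adjusted p = 6.56e-12) at 4 h and -0.61 ± 0.087 (SD, n = 3, adjusted p = 0.00181) at 6 h, when BIO2 was lowest. YAH1, the mitochondrial ferredoxin, averaged -0.94 ± 0.15 (SD, n = 6, adjusted p = 3.57e-10) at 4 h and 0.073 at 6 h. With compound 1 in 2-copy cells 3 of the 13 rose and 1 fell, and with compound 2 3 rose and 2 fell. Of all probes 37% were called with each, and the medians of the 13 were 0.0075 and 0.027. In vector cells 1 rose with each compound, where 5.27% and 2.15% of probes were called. With compounds 1 and 2 in 2-copy cells IBA57 rose by 0.70 (adjusted p = 0.000513) and 0.49 (adjusted p = 0.0144). ISU2, a scaffold protein for cluster assembly, rose with both compounds in 2-copy (0.38 and 0.87) and in vector cells (0.45 and 0.55).

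Across the means of the 30 groups, which share strains and may share cultures, the members can be set beside each other as a description. BIO3 and BIO4 correlated at 0.83, VHT1 correlated with BIO3 at -0.74, with BIO4 at -0.59 and with BIO2 at 0.55, and BIO5 with the others between -0.063 and 0.10. Over the 12 time-course groups alone BIO3 and BIO4 correlated at 0.75 and VHT1 with BIO3 at -0.54, with BIO4 at -0.74 and with BIO5 at 0.65. The coefficients over all groups include the compound values for which VHT1 was chosen.

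**Figure D4:**
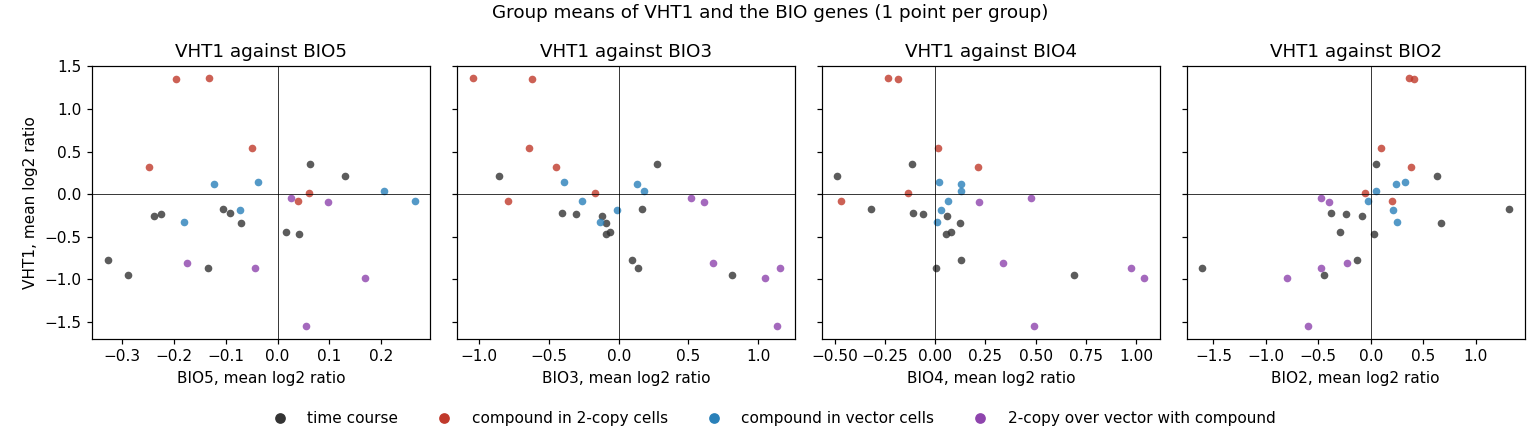
Mean log2 ratio of VHT1 (vertical) against that of BIO5, BIO3, BIO4 and BIO2 (horizontal), 1 point for each of the 30 groups, coloured by kind of comparison. Groups with high VHT1, the compounds 1 and 2 in 2-copy cells, have BIO3 means of -1.05 and -0.62. VHT1 was chosen for those values, and over the 12 time-course groups it correlates with BIO3 at -0.54 and with BIO5 at 0.65, against -0.74 and -0.01 over all 30.

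Among named genes, those whose group means were most like VHT1 were SUT1 (0.91), a regulator of sterol uptake, SCY1 (0.91) and NRM1 (0.90), a repressor of late G1 transcription, by Pearson correlation over 30 groups. The lowest was NCR1 (-0.93), a vacuolar membrane protein of sphingolipid and sterol transport. SUT1 had -1.47 in 2-copy over vector cells at 4 h and 1.45 and 1.37 with compounds 1 and 2 in 2-copy cells, where VHT1 had -0.95, 1.36 and 1.36. BIO3 was most like YAP1 (0.94), a regulator of the oxidative stress response, HIS5 (0.91) and LYS1 (0.91), enzymes of histidine and lysine synthesis, and least like the cell wall enzyme gene UTR2 (-0.92). For BIO4 they were PHM8 (0.90), GPG1 (0.89) and KDX1 (0.88), with SDH4 (-0.92), a subunit of succinate dehydrogenase, at the other end.

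BIO2 was most like RSA1 (0.91) and NOC4 (0.90), both of ribosome assembly, and COX8 (0.90), a subunit of cytochrome c oxidase, and least like DCW1 (-0.91), of the cell wall. At 6 h in 2-copy over vector cells, where BIO2 was at -1.61, COX8 was at -1.15 and RSA1 at -0.94. BIO5 had no gene as close, with ARO9 (0.63), an aromatic aminotransferase, the highest and CAN1 (-0.68), the arginine permease, the lowest.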

How the data were processed

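The deposited values are log2 ratios of Cy5 over Cy3, 1 per probe and array, which the authors normalised; the submitters' processing notes name limma, but not its version, and the background treatment and normalisation method are unstated in the sources used here. The log base and the direction were read from limma's convention and the dyes and titles in the labels. Raw intensities were not analysed here, so signal over background is unknown, and the number of arrays limits the precision. Probes were named by locus tag through the RefSeq table of assembly R64 (5840 of 6377 matched).

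One mean per group was fitted with limma 3.58.1 in R 4.3.3 to 83 of 93 arrays, with 57.6 degrees of freedom of which 4.61 came from the prior. Tests were two-sided, and p was adjusted by Benjamini-Hochberg within a comparison, over all its probes (for pairs of compounds, over all probes and 15 pairs), with a threshold of 0.05; "called" means below it. The fit was tried on simulated data with independent normal noise of equal spread on all arrays. Those data held no dye effect and no unequal array spread, so the trial does not bear on the calls that shifted with either. The labels name 3 pairs of biological replicates for a comparison, but not whether different comparisons share cultures. Residuals of same-numbered arrays correlated above 0.1 for all 3 numbers in 0 of 9 differences, so numbers were not used to pair arrays. Single correlations ranged from -0.23 to 0.56, the highest for number 3 in the response to compound 2, so sharing in some numbers is not excluded.

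The members and lists were chosen with earlier results of these data known. Named genes are the members, the 2 of each list with the smallest p in 2-copy over vector at 4 h and the 2 with the largest mean over compounds, and the 3 most and 1 least correlated gene per member. ARH1, the iron-sulphur cluster assembly gene with the largest mean over compounds, also falls under this rule, but its values are not described here. Alternatives were all 93 arrays, a dye term, scaling by each array's median absolute deviation, array weights, own arrays alone, a replicate block, the other sides of the loop of arrays and leaving out each replicate number. Leaving out array 1 of compound 5 and turning array 2 were chosen after seeing the data.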

Additional observations from a re-analysis of the deposited data

Results flagged for a closer look

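Among the 5 genes, 5 changes of the strain difference from 0 h were called, all in 2-copy over vector cells: VHT1 by -0.73 at 4 h and -0.65 at 6 h, BIO3 by 1.22 at 4 h, BIO4 by 0.80 at 4 h and BIO2 by -1.23 at 6 h. BIO3 is also the gene whose response to compound 2 differed between 2-copy and vector cells in the test of that difference (-0.76). That call was kept under 3 of 10 alternatives, and through the other sides of the loop the BIO3 difference was -0.30. For VHT1 with compounds 3 and 4, every kept array of 2-copy cells (1 and 2 arrays) was above 0 and every array of vector cells below it. The differences were 0.87 and 0.50. With a dye term the vector means were above 0 (0.16 and 0.25) and the differences 0.43 and 0.37, and through the other sides of the loop the differences were -0.033 and 0.084. These 2 differences were not tested, because VHT1 was chosen for its response to compounds.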

How the results depend on the processing

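Of 33 calls, 11 were kept under every alternative, among them VHT1 at 2, 4 and 6 h, BIO3 and BIO4 at 4 h and BIO2 at 4 and 6 h in 2-copy over vector cells; 22 were lost under at least 1, and 39 further results were called under at least 1. Of 60 time-course tests 13 were called, and 25 with array weights. Changes from 0 h gave 5 calls, and 2 with array scaling. Compounds in 2-copy cells gave 5 calls in BIO2 to BIO5, 3 with a dye term, 2 with array scaling, 2 with array weights, 1 with own arrays alone (20 tests) and 1 to 6 without 1 replicate number. Compounds in vector cells gave 0, 2 with array scaling and 4 with array weights. The response in 2-copy minus vector cells gave 1 call, 5 with a dye term, 2 with own arrays alone, 0 with all 93 arrays, array scaling, array weights or the other sides of the loop, and 0 to 1 without 1 replicate number. The strain difference with compound gave 9 calls, 4 with all 93 arrays, 14 with array weights, 1 with own arrays alone (12 tests) and 5 to 11 without 1 replicate number. Pairs of compounds gave 0 calls in 2-copy cells, 2 with all 93 arrays and 1 with a dye term, and 0 in vector cells, 2 with array weights. The cause of these shifts was not tested.

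With a replicate block, which could be fitted only to differences of 2 groups, changes from 0 h gave 5 calls, strain differences in response 1, and pairs of compounds 3 in 2-copy and 0 in vector cells. Of the untested VHT1 values with compounds that exceeded the SD of their arrays, 3 turned sign: with a dye term compound 3 in vector cells came to 0.16 and compound 4 in vector cells to 0.25, and through the other sides of the loop the difference in response to compound 3 came to -0.033. Smaller ones turned too: with the dye term compound 5 in 2-copy cells came to 0.43, compound 6 in vector cells to 0.40, the strain difference with compounds 1 and 2 to 0.37 and 0.40, and the difference in response to compounds 5 and 6 to 0.15 and -0.16 (0.15 and -0.60 through the loop). Tested values that were not called under either setting were not counted as turned. Leaving out a replicate number dropped it from every group that kept at least 2 arrays.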
